A study of Mus musculus with 3 samples.

Results

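The genes described here are 37 mouse genes of DNA replication, taken by symbol from a fixed list that runs from the loading of the replicative helicase to the packaging of new chromatin, out of 30406 gene IDs that all 3 libraries share. All 37 genes were found in each library with at least 1 UMI (unique molecular identifier, a tag that marks 1 captured RNA molecule). The study asked what chronic graft-versus-host disease (GVHD) after bone marrow transplantation (BMT) does to invariant natural killer T (iNKT) cells in the mouse thymus. It profiled thymocytes by droplet single-cell RNA-seq after depletion of CD8+ cells and a sort for TCRβ+ cells that bound the CD1d tetramer and lacked CD24 and NK1.1. The 3 libraries, 1 per condition, were WT (C57BL/6 mice that had no BMT, labelled as 7 weeks old), Non-GVHD (irradiated F1 hosts, C57BL/6 x BALB/c, given T cell-depleted C57BL/6 marrow only, 16 weeks old and 9 weeks after BMT) and GVHD (the same hosts and marrow plus C57BL/6 spleen cells, at the same age and time). Both BMT groups therefore share irradiation, a host genotype other than WT and donor marrow, and each library pooled thymi of several mice, so no value here has a replicate and every interval given covers counting error only.

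DNA replication starts when the origin recognition complex, Cdc6 and Cdt1 load the Mcm2-7 ring on DNA. Cdc45 and the GINS complex then turn the ring into an active helicase, primase and DNA polymerases copy both strands around the Pcna clamp, and enzymes of nucleotide synthesis supply the building blocks. Most of these genes are transcribed as cells enter S phase, many under E2F factors, and in the thymus iNKT cells divide in a burst after positive selection before they mature into NKT1, NKT2 and NKT17 cells, which are named by the factors and cytokines they make.

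Cells with more than 200 and fewer than 6000 detected genes and under 10% mitochondrial UMIs were kept, which left 4434 of 4613 barcodes in WT, 5970 of 5986 in Non-GVHD and 5557 of 5573 in GVHD. The libraries held 60600408, 35041153 and 43383960 UMIs, with medians per kept barcode of 12073.5, 4721 and 6463 UMIs over the shared genes. WT stood apart from both BMT libraries in depth, in its median mitochondrial share (6.48% against 0.687% and 0.511%), in V beta segment UMIs (found in 19.8% of its cells against 89.5% and 89.2%) and in the software version in its header, so a difference between WT and a BMT library cannot be told apart from these. Non-GVHD and GVHD shared 43 barcodes and WT shared 0 with either. The study names both a 3' and a 5' kit without saying which library used which, so a difference in kit cannot be told apart either. Cells were assigned to lineages by marker genes alone (NKT1, NKT2, NKT17, Foxp3+, Cd8b1+ and Siglech+ gates), which placed 88.8%, 82.0% and 71.4% of the cells of WT, Non-GVHD and GVHD, and 4.71%, 7.35% and 13.5% of cells met more than 1 gate. Doublets were not removed.

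Promoter sequences show what the letters near the start of these genes share, and 33 of the 37 had one in the RefSeq table of GRCm38.p6. Rfc2, Gins2, Tipin and Mcm4 had no entry. The 250 bases before the first listed start were searched on both strands for E2F-type words (TTTCCCGC, TTTCGCGC, TTTGCCGC and TTTGGCGC), for the NF-Y word CCAAT and for the CHR word TTTGAA. An E2F-type word stood before 9 of 33 genes (27.3%) and before 1.91% of 27025 genes in the table. CCAAT stood before 18 (54.5%, against 34.5% of all) and TTTGAA before 3 (9.09%, against 16.3%). The 9 genes were Mcm5, Mcm6, Mcm7, Cdc6, Pola1, Rfc3, Hells, Cdca7 and Dtl. The first listed start can lie inside a longer annotated gene. The windows of Cdc6, Mcm7, Timeless, Dut and E2f1 lay wholly within theirs, so they are not upstream of the gene as annotated. A match describes letters and not a bound site.
The 4 promoters printed here belong to genes that the results turn on, a helicase pair with E2F-type words, the gene with the largest GVHD difference in NKT1 cells and the gene furthest below 0 there. They run 5′ to 3′ on the strand of the gene, E2F-type and CCAAT matches on either strand are in capitals, and matches that overlap run together. Mcm5 lies at chr8:75109259-75109508 (+), Mcm6 at chr1:128359706-128359955 (-), Tyms at chr5:30073626-30073875 (-) and Cdt1 at chr8:122567765-122568014 (+).
Mcm5: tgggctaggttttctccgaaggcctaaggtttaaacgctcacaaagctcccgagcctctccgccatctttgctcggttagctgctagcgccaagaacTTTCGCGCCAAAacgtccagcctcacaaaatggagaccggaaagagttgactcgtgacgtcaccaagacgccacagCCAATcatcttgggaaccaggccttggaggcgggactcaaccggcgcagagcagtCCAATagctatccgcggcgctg
Mcm6: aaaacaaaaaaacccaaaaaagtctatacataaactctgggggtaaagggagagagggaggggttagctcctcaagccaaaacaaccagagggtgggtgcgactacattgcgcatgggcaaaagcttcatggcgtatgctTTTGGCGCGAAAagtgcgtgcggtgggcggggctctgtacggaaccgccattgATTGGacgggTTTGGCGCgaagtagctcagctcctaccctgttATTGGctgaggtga
Tyms: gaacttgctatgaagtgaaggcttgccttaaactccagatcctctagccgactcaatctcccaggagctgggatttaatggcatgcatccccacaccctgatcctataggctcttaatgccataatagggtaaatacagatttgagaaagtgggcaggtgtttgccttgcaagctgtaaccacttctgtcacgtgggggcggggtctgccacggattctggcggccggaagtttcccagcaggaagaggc
Cdt1: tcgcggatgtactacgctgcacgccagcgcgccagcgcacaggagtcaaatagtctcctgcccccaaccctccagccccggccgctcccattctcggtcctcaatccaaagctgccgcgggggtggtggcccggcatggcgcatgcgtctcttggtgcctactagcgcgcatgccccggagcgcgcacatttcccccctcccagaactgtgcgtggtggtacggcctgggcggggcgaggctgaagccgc
The Mcm5 window held 2 overlapping E2F-type matches and 2 CCAAT boxes and the Mcm6 window 3 E2F-type matches and 2 CCAAT boxes. Neither word was found in the windows of Tyms, thymidylate synthase, or Cdt1, a helicase loading factor.

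Levels are given as CPM, the UMIs of a gene for each 1000000 UMIs of the same cells over the shared genes, and a sum over genes is in the same unit. Over all kept cells, the summed level of the 37 genes was 1699 CPM in WT, 1619 in Non-GVHD and 2057 in GVHD. The sum was thus higher in GVHD than in Non-GVHD, by 0.35 on the log2 scale (counting interval 0.33 to 0.36), and 36 of 37 genes had a positive log2 ratio. With 1 library per condition, a gene was called here when its ratio passed 1.5-fold in either direction and both groups together held at least 50 UMIs. By that rule 5 of 37 genes were higher in GVHD and 0 lower, against 6.83% higher and 8.28% lower among all 12802 genes that qualified. The 5 were Tyms (70.9 CPM in GVHD and 46.1 in Non-GVHD), Clspn (22.6 and 14.8), Lig1 (39.3 and 25.8), Gins2 (21.2 and 14.1) and Rrm2 (62.8 and 41.8). Their log2 ratios lay between 0.59 and 0.62, little past the limit of 1.5-fold, while the median of all members was 0.40 and that of all genes 0.00. With all deposited barcodes 3 genes passed, for which no share over all genes is given. Cdt1 was the exception, at 30.5 CPM in GVHD and 32.9 in Non-GVHD. The libraries also differed in lineages, since NKT1 cells made up 25.9% of WT, 43.6% of Non-GVHD and 12.6% of GVHD cells and NKT2 cells 55.7%, 16.0% and 30.3%, and a level over all cells cannot tell a change in their shares from a change in RNA per cell. The levels were therefore set out by lineage.

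In every library the NKT2 gate held more replication RNA than the NKT1 gate. The summed level in NKT1 cells was 911 CPM in WT, 1030 in Non-GVHD and 1422 in GVHD. In NKT2 cells it was 1860, 2432 and 2555. NKT17 cells stood at 1854, 1500 and 1586. The NKT17 level was thus beside NKT2 in WT and between NKT1 and NKT2 in both BMT libraries. Foxp3+ cells, which carry the defining factor of regulatory T cells, were at 2273 in Non-GVHD and 2699 in GVHD, and Cd8b1+ cells at 1630 and 1656. The lowest levels of the BMT libraries were in Siglech+ cells, marked by a plasmacytoid dendritic cell receptor, at 626 and 1121 CPM. In WT these last 3 gates held too few cells to be described.

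**Figure D1:**
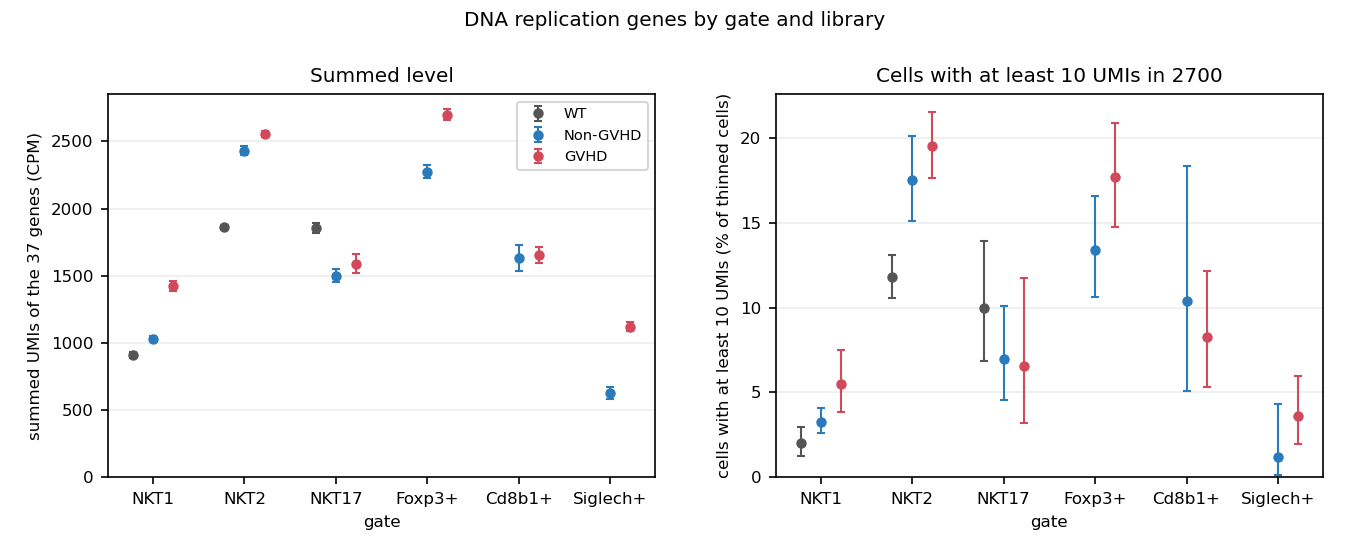
Left, summed CPM of the 37 genes in each gate and library; right, the percentage of thinned cells with at least 10 such UMIs in 2700, with points for libraries and bars for 95% counting intervals. NKT2 and Foxp3+ cells sit highest and NKT1 and Siglech+ cells lowest in both BMT libraries, and GVHD lies above Non-GVHD by the widest margins in Siglech+, Foxp3+ and NKT1 cells on the left.

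The difference between NKT2 and NKT1 cells reached nearly every gene of the list. It passed 1.5-fold for 34 of 37 genes in WT, 32 in Non-GVHD and 28 in GVHD, with 0 lower in each, where 17.2%, 18.0% and 14.9% of all genes that qualified were higher and 14.4%, 17.7% and 18.8% lower. The median log2 ratio of the members was 1.19 in WT, 1.39 in Non-GVHD and 0.91 in GVHD, and that of all genes 0.01, 0.03 and -0.01. The NKT1 gate was the shallower of the pair, with a median of 4397 UMIs per cell in Non-GVHD against 9321 in NKT2, and the part of cell size in a CPM ratio was not tested. The summed ratio kept its sign in every alternative tried, from 0.55 to 1.06 in WT, 0.94 to 1.24 in Non-GVHD and 0.61 to 0.99 in GVHD. Leaving out cells that met more than 1 gate removed none from these gates, so that alternative could not move the ratio. Using all deposited barcodes added none to either gate in GVHD. The lowest WT value, 0.55, came from the NKT2 and NKT1 cells with V beta segments of the set counted here as iNKT segments (544 and 109 cells). Among these, 17 of 37 genes were higher past 1.5-fold, where 14.9% of all genes were.

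Among the licensing factors, Cdc6, which helps to load the helicase, stood at 4.31 CPM in NKT1 and 13.7 in NKT2 cells of WT, 4.88 and 21.0 in Non-GVHD and 5.94 and 21.1 in GVHD. Its partner Cdt1 did not share that gap in WT or Non-GVHD. Cdt1 stood at 21.0 and 22.1 in WT and at 37.2 and 38.0 in Non-GVHD, and its log2 ratios were 0.07 and 0.03. In GVHD it stood at 26.2 and 38.0. All 8 helicase genes passed 1.5-fold in WT, 7 did in Non-GVHD and 6 in GVHD, where 17.2%, 18.0% and 14.9% of all genes were higher. Cdc45, which binds the ring when an origin fires, had log2 ratios of 1.95 (1.42 to 2.52) in WT and 1.47 (0.93 to 2.06) in GVHD. Mcm4, a subunit of the ring, had the smallest ratio of this group in WT and Non-GVHD, 0.60 and 0.49. Gins2, a subunit of the GINS complex, was lowest in GVHD at 0.45.

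All 5 genes of nucleotide supply and of keeping uracil out of DNA (Rrm1, Rrm2, Tyms, Dut and Ung) passed 1.5-fold in each library. Of all genes 17.2%, 18.0% and 14.9% were higher in WT, Non-GVHD and GVHD. Rrm2, the S-phase subunit of ribonucleotide reductase, was at 12.8 CPM in NKT1 and 52.0 in NKT2 cells of WT, at 12.9 and 90.9 in Non-GVHD and at 32.1 and 88.2 in GVHD. Tyms was at 16.0 and 62.1 in WT, 13.4 and 87.2 in Non-GVHD and 40.4 and 94.2 in GVHD. For both genes the level in the NKT1 gate was close between WT and Non-GVHD and higher in GVHD, and the NKT2 level was close between Non-GVHD and GVHD. The NKT1 gate of GVHD also differed in markers and V beta segments, as set out below, so it may not hold the same kinds of cells. The log2 ratios of Rrm2 were 2.02, 2.81 and 1.46 and those of Tyms 1.96, 2.70 and 1.22 in WT, Non-GVHD and GVHD.

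The chromatin genes held both wide and narrow gaps. Cdca7, a partner of the remodeller Hells, was at 14.1 and 59.3 CPM in NKT1 and NKT2 cells of WT, 15.4 and 77.7 in Non-GVHD and 21.9 and 81.4 in GVHD, with log2 ratios of 2.07, 2.34 and 1.90. Chaf1a, the large subunit of the CAF-1 histone chaperone, had the highest ratio of the list in WT at 2.19 (1.71 to 2.72). Uhrf1, which maintains DNA methylation behind the fork, reached 2.43 in Non-GVHD and 1.84 in GVHD. Slbp, which binds the stem-loop of histone mRNAs, was flat by comparison, at 105 and 101 CPM in WT, 114 and 122 in Non-GVHD and 106 and 123 in GVHD. Among the checkpoint genes, the claspin gene Clspn went from 5.29 in NKT1 to 29.9 in NKT2 cells of Non-GVHD, and the clamp loader gene Rfc2 had log2 ratios of only 0.20, 0.52 and 0.21 in WT, Non-GVHD and GVHD. Pold1, the catalytic subunit of DNA polymerase delta, was among the 5 smallest ratios of Non-GVHD at 0.56.

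**Figure D2:**
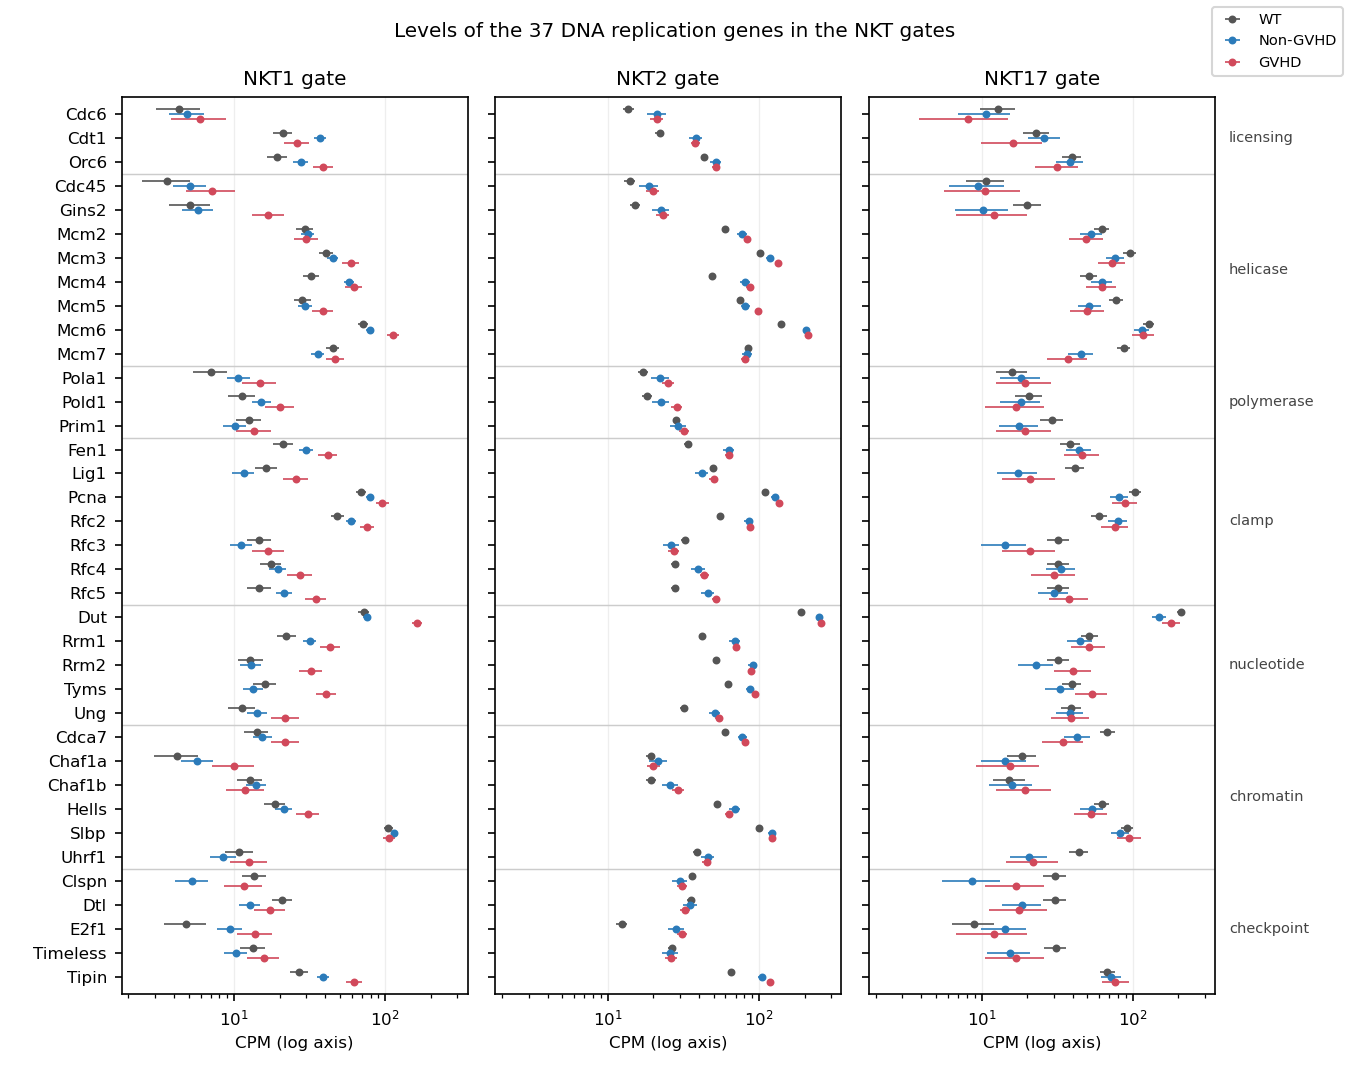
CPM (log axis) of each of the 37 genes in NKT1, NKT2 and NKT17 cells of the 3 libraries, grouped by role, with 95% counting intervals. Most genes lie farther right in NKT2 than in NKT1 cells, while Slbp stays close to the same place, as Cdt1 does in WT and Non-GVHD. Within the NKT1 panel the GVHD points of Tyms, Rrm2, Gins2 and Dut stand clear of the other libraries.

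NKT17 cells passed 1.5-fold over NKT1 cells for 32 of 37 genes in WT, 22 of 37 in Non-GVHD and 7 of 35 in GVHD, where 17.0%, 13.6% and 7.28% of all genes were higher. Cdca7 led in WT (67.9 CPM in NKT17 and 14.1 in NKT1 cells) and in Non-GVHD (43.0 and 15.4). In GVHD the highest was Ung, uracil DNA glycosylase, at 38.9 and 21.9. The 1 gene lower was Cdt1 in GVHD, at 16.2 and 26.2, against 13.6%, 12.7% and 10.6% of all genes lower in WT, Non-GVHD and GVHD. These counts rest on cells that also met another gate. Without them the summed log2 ratio went from 1.03 to 0.27 in WT, from 0.54 to 0.05 in Non-GVHD and from 0.16 to -0.58 in GVHD, with 100, 295 and 127 NKT17 cells left of 301, 386 and 155. B cell markers in the NKT17 gate summed to 433 CPM in Non-GVHD and 820 in GVHD, against 16.4 and 32.8 in NKT1 cells. The part of B cell markers in these ratios was not tested. Zbtb16 stood at 248 CPM in the NKT17 gate of WT, 176 in Non-GVHD and 72.0 in GVHD. V beta UMIs were found in 60, 342 and 133 cells of this gate. Of these, 88.3%, 64.3% and 43.6% had them mainly on segments counted here as iNKT segments. The name NKT17 thus stands for the gate, and how many of its cells were iNKT cells was not tested.

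Between the BMT libraries, replication genes differed most in the NKT1 gate among the NKT gates. In 702 GVHD against 2600 Non-GVHD cells, 33 of 37 genes had a positive log2 ratio, 12 were higher past 1.5-fold and 0 lower, where 12.3% of 9972 genes were higher and 10.4% lower. The median of the members was 0.48 and of all genes 0.04, and the summed level differed by 0.46 (0.42 to 0.51). Tyms stood at 40.4 CPM in GVHD and 13.4 in Non-GVHD (170 and 165 UMIs), a log2 ratio of 1.59 (1.27 to 1.91). Gins2 followed at 16.9 and 5.78, or 1.55 (1.05 to 2.04). Rrm2 was at 32.1 and 12.9, or 1.31 (0.97 to 1.65). These 3 genes had the widest differences of the list in this gate. Over all gates, cells in a mitosis or histone state, described with the cycle states, held 75.8% of Rrm2 UMIs in GVHD and 71.1% in Non-GVHD. The NKT1 gate held 24 and 49 such cells, and the intervals do not cover which cells were drawn. Among NKT1 cells in neither state the log2 ratios were 1.38 for Tyms, 1.39 for Gins2 and 0.99 (0.18 to 1.77) for Rrm2. Lig1, which seals the fragments of the lagging strand, was at 25.7 and 11.6, and Clspn at 11.7 and 5.29, with log2 ratios of 1.15 and 1.14. Dut, the dUTPase that keeps uracil out of DNA, was at 161 and 76.0, a log2 ratio of 1.09.

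By role, 4 of the 5 nucleotide and uracil genes were past the limit in NKT1 cells (median 1.09), 3 of 5 checkpoint genes (Clspn, Tipin and Timeless, median 0.61), 3 of 7 clamp genes (Lig1, Rfc5 and Rfc3, median 0.47), 1 of 8 helicase genes (Gins2, median 0.39), 1 of 6 chromatin genes (Chaf1a, median 0.52) and 0 of 3 polymerase and 0 of 3 licensing genes (medians 0.43 and 0.28). Over all genes 12.3% were higher in this comparison and 10.4% lower. Roles of so few genes cannot be ranked by these counts, and a count of 1 or 0 cannot be told from that share. The genes of the Mcm ring lay between -0.04 for Mcm2 and 0.51 for Mcm6. Cdt1 was the furthest below 0, at 26.2 CPM in GVHD and 37.2 in Non-GVHD, a log2 ratio of -0.51. Chaf1b, the middle subunit of CAF-1, was at -0.23 and Slbp at -0.11. The mitosis list of 24 genes differed by more than the replication genes in the same cells, 386 against 140 CPM or 1.46, and the 14 histone genes by 1.32.

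The NKT1 gate of GVHD also differed in markers and in T cell receptor segments. Cd4 stood at 218 CPM in GVHD and 33.6 in Non-GVHD, Klrb1c at 25.7 and 126 and Zbtb16 at 36.9 and 54.6. The gate markers Tbx21 (103 and 140) and Nkg7 (864 and 1612) were lower as well. Of its cells with V beta UMIs, 38.8% (35.1 to 42.7) had at least 80% of them on segments counted here as iNKT segments. In the NKT1 gate that share was 86.8% (85.4 to 88.1) in Non-GVHD and 90.8% in WT. In the other gates of GVHD it was 86.9% in NKT2, 43.6% in NKT17, 34.2% in Cd8b1+, 31.5% in Siglech+ and 25.8% in Foxp3+ cells. A UMI of the V alpha segment Trav11 was found in 1 NKT1 cell of GVHD and 35 of Non-GVHD, and in 22 NKT2 cells of each. The name NKT1 thus stands for the gate, and how many of its GVHD cells were iNKT cells was not tested. The summed log2 ratio was 0.61 among cells with iNKT segments (255 and 2149 cells) and 0.60 among cells with other segments (363 and 176). Foxp3+ and Cd8b1+ cells also carry iNKT segments, so this split does not set iNKT cells apart from other T cells. Among cells in neither the mitosis nor the histone state, described with the cycle states, the summed log2 ratio was 0.37 (632 and 2242 cells). The count of genes higher, 12 over the gate, was 20 of 37 among cells with iNKT segments, where 10.9% of all genes were higher. Among cells with other segments it was 11 of 19, against 12.4%. It was 22 with gates set on thinned UMIs and 21 with 1 marker more per gate, for which no share over all genes is given.

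**Figure D3:**
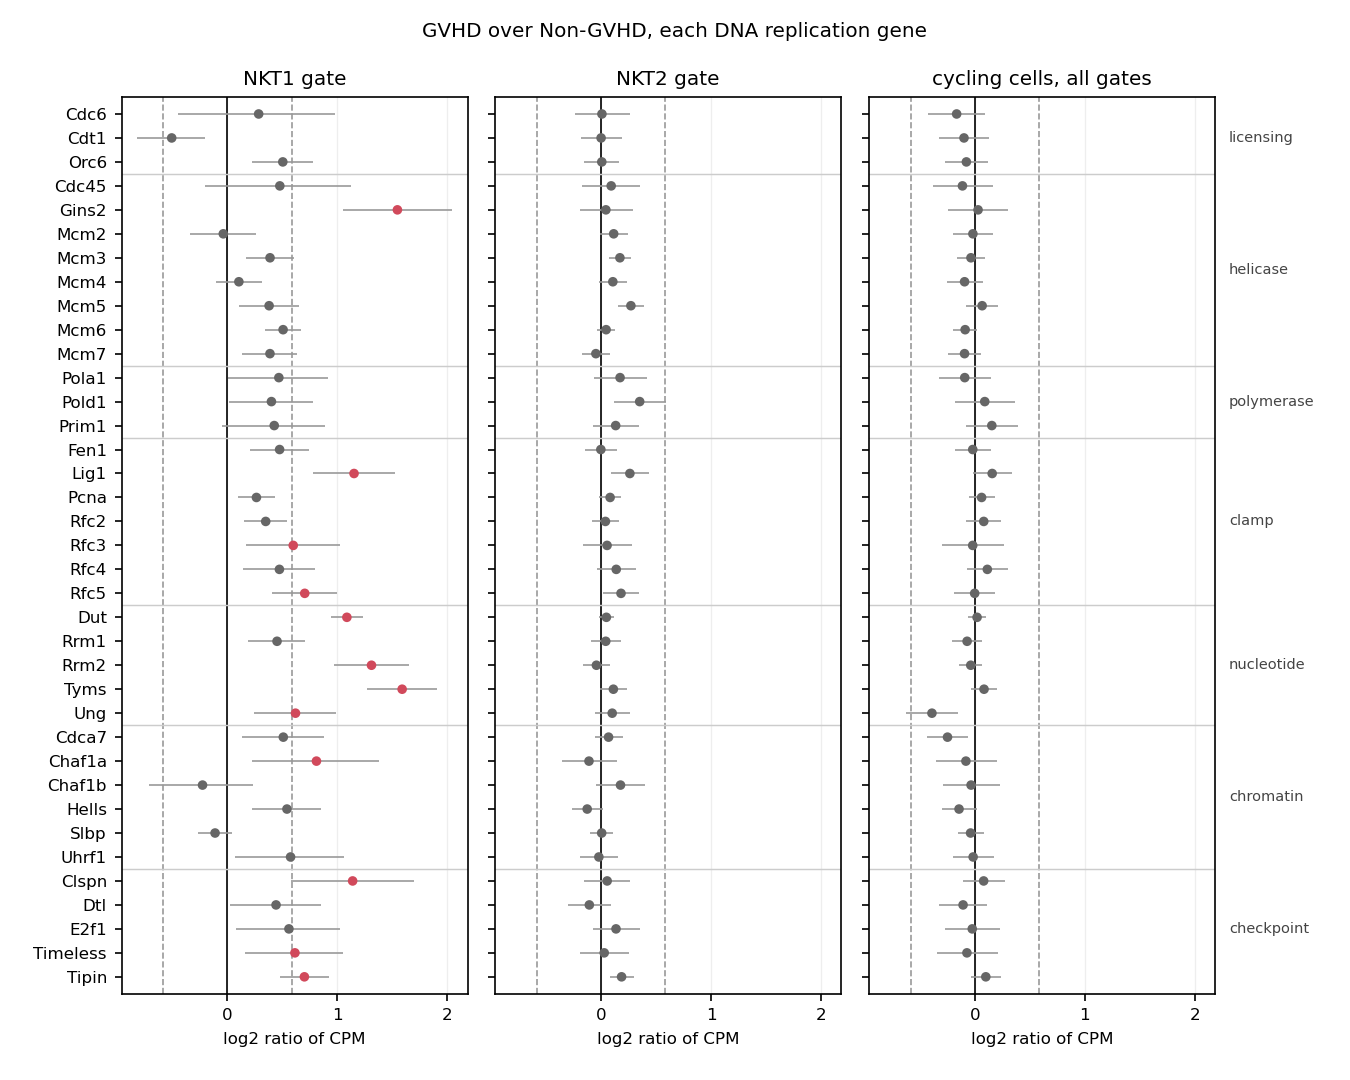
Log2 ratio of GVHD over Non-GVHD for each gene in NKT1 cells, NKT2 cells and cycling cells of all gates, with 95% counting intervals; dashed lines mark 1.5-fold and red points are genes past it. In NKT1 cells 12 genes are red, led by Tyms at 1.59, and in NKT2 and cycling cells none is.

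NKT2 cells gave no such difference. In 1683 GVHD and 953 Non-GVHD cells, 0 of 37 genes passed 1.5-fold in either direction, where 1.19% of 10446 genes were higher and 2.90% lower, the median log2 ratio was 0.05 against -0.03 for all genes, and the summed level differed by 0.07 (0.05 to 0.09). The range over the 37 genes ran from -0.13 for Hells to 0.35 for Pold1. Tyms was at 94.2 CPM in GVHD and 87.2 in Non-GVHD and Rrm2 at 88.2 and 90.9. The share of iNKT V beta segments was 86.9% and 88.0% in this gate. In Foxp3+ cells 1 of 37 genes was higher, the primase subunit gene Prim1 at 35.2 and 22.8 CPM (3.28% of all genes higher and 6.65% lower), although 35 genes had a positive ratio and the sum differed by 0.25 (0.21 to 0.29). That count ran from 0 to 9 over the alternatives. It was 4 of 37 without cells that met more than 1 gate (4.15% of all genes) and 9 of 34 among cells with iNKT V beta segments (6.13% of all genes).

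In the smaller gates fewer genes qualified. Of 33 genes in NKT17 cells, Rrm2 (40.5 and 22.9 CPM in GVHD and Non-GVHD) and Tyms (53.4 and 33.2) were higher and Cdt1 (16.2 and 26.1) lower, against 6.82% and 8.58% of all genes, and the sum differed by 0.08 (0.00 to 0.16). That sum turned to -0.17 without cells that met more than 1 gate and to -0.20 with gates set on thinned UMIs. Of 29 genes in Cd8b1+ cells, Rrm2 (39.6 and 18.5) and Tipin (79.7 and 52.4) were higher and Cdca7 (33.6 and 55.5) and Ung (30.9 and 49.3) lower, against 4.68% and 9.60% of all genes, and the sum differed by 0.02 (-0.08 to 0.13). Without cells that met more than 1 gate that sum was -0.35.

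Siglech+ cells had the widest ratios of all. There 27 of the 37 genes qualified, all 27 with a positive ratio and 17 higher past 1.5-fold and 0 lower, where 6.95% of all genes were higher and 6.88% lower, and the sum differed by 0.84 (0.73 to 0.95). Hells was at 33.5 CPM in GVHD and 2.38 in Non-GVHD, from 115 and 3 UMIs, a log2 ratio of 3.81 (2.23 to 6.11). Rrm2 was at 27.4 and 3.18, or 3.11 (1.70 to 5.01), and Cdca7 at 20.4 and 2.38, from 70 and 3 UMIs, or 3.10 (1.49 to 5.41). Lig1 followed with 2.06 (0.76 to 3.74) and Mcm5 with 1.82 (0.88 to 2.92). T cell genes were also higher, at 849 CPM in the Siglech+ cells of GVHD and 377 in those of Non-GVHD, against 4669 and 4862 in NKT1 cells. In the Siglech+ gate of GVHD and Non-GVHD, Cd8b1 was at 607 and 361 CPM and Cd3e at 204 and 93.8. In the Cd8b1+ gate Cd8b1 was at 947 and 940 and Cd3e at 1465 and 1397. How many Siglech+ cells that met another gate were mixtures with T cells was not tested. Without the cells that met another gate as well, 145 and 95 cells were left and the summed ratio was -0.29. Only 4 of the 37 genes still qualified there, of which 0 were higher and 2 lower. Of all genes 6.19% were higher there, and the share lower is not given, so the count of lower genes cannot be read against it.

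Cycling cells were then set apart to ask how the genes lie in the cell cycle. Each cell with at least 2700 UMIs was thinned to 2700, which left out 15, 959 and 568 shallower cells of WT, Non-GVHD and GVHD, and a cell was put in the mitosis or histone state when it held at least 3 UMIs of 24 mitosis genes or of 14 histone genes, lists that contain no member. Cells in either state, here called cycling, were 11.0% (10.1 to 11.9) of WT, 4.93% (4.35 to 5.57) of Non-GVHD and 8.36% (7.60 to 9.16) of GVHD cells. Their share was 3.22%, 2.14% and 3.66% in NKT1 and 13.8%, 11.1% and 13.5% in NKT2 cells. In NKT17 cells it was 15.3%, 2.78% and 7.89%.

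In cycling cells all 37 genes in WT and Non-GVHD and 36 of 37 in GVHD were more than 1.5-fold above cells in neither state, where 14.4%, 15.0% and 11.5% of all genes were higher, and 0 were lower (16.3%, 18.4% and 19.4% of all genes). The median log2 ratio was 1.64, 2.12 and 1.78. Rrm2 led in each library, at 205 CPM in cycling and 9.87 in other cells of WT, 345 and 11.7 in Non-GVHD and 336 and 16.4 in GVHD. Its log2 ratios were 4.37, 4.88 and 4.36. After thinning, cycling cells held 78.5% of the Rrm2 UMIs of WT, 71.1% of Non-GVHD and 75.8% of GVHD. Clspn, with ratios of 3.08, 4.14 and 3.85, had 63.1%, 56.9% and 77.3% of its UMIs there. Tyms (3.08, 3.67 and 3.25), Cdc45 (3.16, 3.21 and 2.72) and Cdc6 (2.41, 3.37 and 2.78) were also high, and in WT Cdc45 stood above Clspn and Uhrf1 (2.67) and Rrm1 (2.52) above Cdc6.

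The smallest ratios belonged mostly to ring subunits and to Rfc2 and Ung. Mcm6 was at 196 CPM in cycling and 112 in other cells of WT, at 317 and 118 in Non-GVHD and at 298 and 147 in GVHD, with log2 ratios of 0.80, 1.42 and 1.02. Rfc2 had 0.96, 1.24 and 1.12 and Mcm4 1.0, 1.30 and 1.14. Mcm2 (0.99) and Ung (1.02) completed the 5 smallest in WT, Cdt1 (1.41) and Ung (1.51) in Non-GVHD and Ung (0.57) and Cdca7 (1.12) in GVHD. For these genes most RNA lay outside cycling cells, since the cycling cells held 19.9%, 12.9% and 18.3% of the Mcm6 UMIs and 19.9%, 13.4% and 16.9% of the Rfc2 UMIs. The list as a whole had 31.4%, 21.0% and 29.2% of its UMIs in them.

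Within the cycling cells the replication genes were lower in cells with mitosis genes only than in cells with histone genes. The comparison with histone-only cells, of which there were 37, 33 and 51, gave 27, 15 and 29 of 37 genes lower past 1.5-fold and 0 higher, against 7.58%, 6.00% and 7.25% of all genes lower and 11.8%, 11.3% and 9.09% higher, with medians of -0.86, -0.53 and -0.71. Against all histone-positive cells, a comparison added after the data were seen, 36, 26 and 27 genes were lower (10.5%, 9.15% and 10.4% of all genes) and 0 higher (5.80%, 6.59% and 5.63%). Rrm2 was lowest there in each library, at 75.0 CPM in mitosis-only and 404 in histone-positive cells of WT, 126 and 486 in Non-GVHD and 113 and 447 in GVHD. Clspn was lower as well, with log2 ratios of -1.95, -1.37 and -1.67. Ung differed from the rest of the list in the BMT libraries. It was at 78.2 in mitosis-only and 73.9 in histone-positive cells of Non-GVHD and at 61.3 and 55.8 in GVHD, but at 37.4 and 65.0 in WT. The mitosis list was itself lower against histone-positive cells, with summed log2 ratios of -0.78, -0.65 and -0.73. Of its 24 genes, 14, 16 and 15 were lower and 2, 3 and 3 higher, so a fall there was not particular to replication genes. Against histone-only cells the mitosis list was higher, at 1.77, 1.21 and 1.60. This follows from the state rule, since histone-only cells are those with fewer than 3 UMIs of that list.

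**Figure D4:**
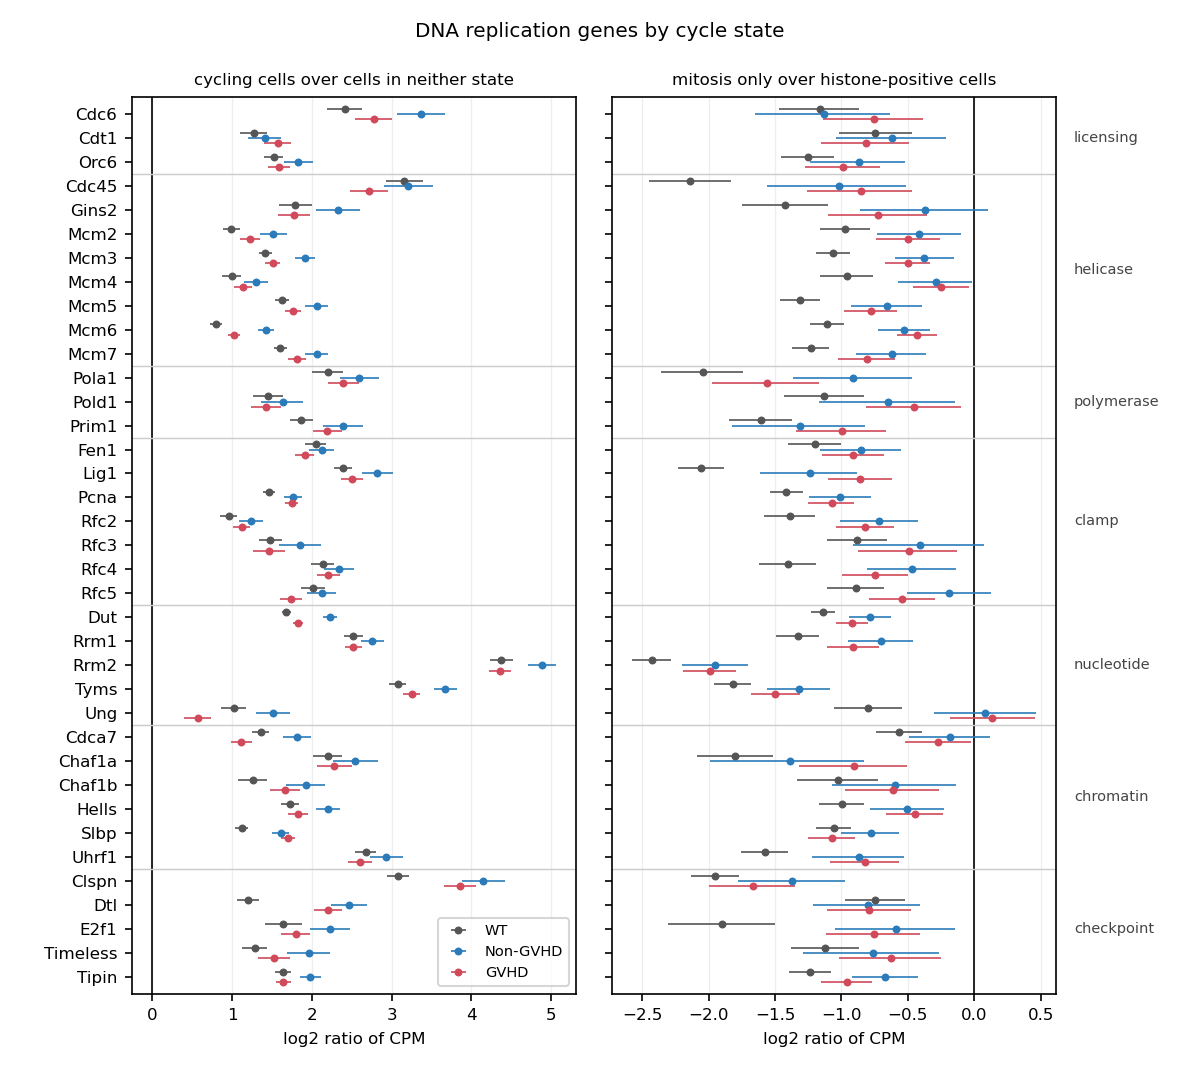
Log2 ratio for each gene of cycling cells over cells in neither state (left) and of mitosis-only over histone-positive cells (right) in the 3 libraries, with 95% counting intervals. On the left Rrm2 lies farthest right, between 4.36 and 4.88, and on the right it lies farthest left while Ung lies near 0 in both BMT libraries.

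GVHD and Non-GVHD cycling cells had close levels. In 417 and 247 cells, 0 of 37 genes passed 1.5-fold in either direction (2.33% of all genes higher and 4.55% lower), the median log2 ratio was -0.04 against -0.03 for all genes, and the summed level was 5391 CPM in GVHD and 5456 in Non-GVHD, a log2 ratio of -0.02 (-0.04 to 0.01). Macrophage genes summed to 253 CPM in the cycling cells of Non-GVHD, and their part was not tested. In cells of neither state (4572 and 4764), 35 of 37 genes had a positive ratio, the median was 0.32 against 0.01 for all genes, and the sum differed by 0.26 (0.24 to 0.28), although 0 genes passed 1.5-fold (6.99% and 7.77% of all genes did). The highest were Gins2 at 0.58 and Ung at 0.55 and the lowest Cdt1 at -0.26. Both comparisons pool all gates, whose shares differed between the libraries, so they cannot tell lineage shares from levels per cell. By gate, the summed log2 ratio of cells in neither state was 0.37 in NKT1, 0.04 in NKT2 and -0.03 in NKT17 cells. It was 0.27 in Foxp3+, -0.25 in Cd8b1+ and 0.59 in Siglech+ cells.

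Per cell, the replication UMIs were uneven. Of 2700 UMIs, cells in neither state had a median of 1 replication UMI in WT and 2 in each BMT library, cells of the mitosis state only 3, 6 and 5, and cells of both states 18, 18.5 and 18 in WT, Non-GVHD and GVHD. At least 3 UMIs were found in 33.1%, 34.5% and 39.6% of cells, and without thinning in 87.3%, 58.5% and 69.3%, an order that followed depth. In Siglech+ cells, of which 95 of 178 in Non-GVHD and 145 of 407 in GVHD met no other gate and 1.22% and 3.08% were cycling, 20.7% of Non-GVHD and 18.8% of GVHD cells reached 3 UMIs (median depths 6655 and 7060), against 29.8% and 38.4% of NKT1 cells (4397 and 4826.5). The NKT1 shares were thus above those of the Siglech+ cells, by less in Non-GVHD than in GVHD.

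With a limit of 10 UMIs, chosen after the distribution was seen, 8.67% of WT, 7.60% of Non-GVHD and 11.7% of GVHD cells remained. In NKT1 cells it was 2.0% (1.27 to 2.99), 3.27% (2.58 to 4.09) and 5.49% (3.87 to 7.51). In NKT2 cells it was 11.8%, 17.5% and 19.5%, and in Siglech+ cells 1.22% and 3.60%. The order of NKT1 below NKT2 held in each library at both limits. At 3 UMIs the NKT1 shares were 29.8% (27.9 to 31.7) in Non-GVHD and 38.4% (34.7 to 42.3) in GVHD. All these intervals cover counting error over the cells of 1 library, so whether they overlap does not compare conditions. Of the cells with at least 10 replication UMIs, 53.0%, 61.9% and 56.1% were in neither the mitosis nor the histone state.

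**Figure D5:**
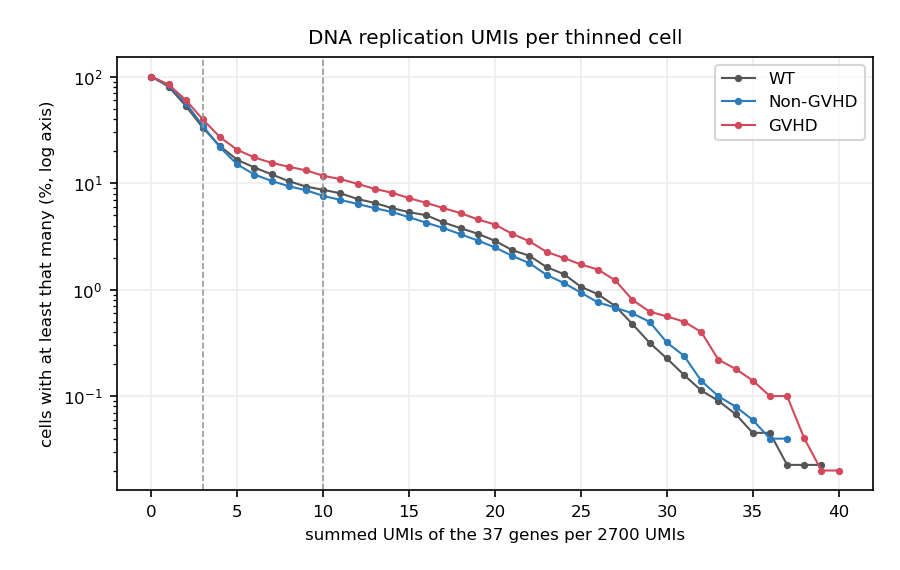
Percentage of thinned cells (log axis) with at least the number of summed replication UMIs on the x axis, by library, with dashed lines at 3 and 10 UMIs. The curves fall steeply to about 5 UMIs and then form a shoulder, and at 10 UMIs GVHD lies at 11.7%, WT at 8.67% and Non-GVHD at 7.60%.

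Between Non-GVHD and WT the summed log2 ratio of the 37 genes was 0.18 in NKT1, 0.39 in NKT2 and -0.31 in NKT17 cells. WT also differed in depth, mitochondrial share, V beta UMIs and software version, so these ratios cannot be told apart from those differences. E2f1 was higher past 1.5-fold in all 3 gates. Clspn had a negative log2 ratio in each, at -0.28 in NKT2 cells. In NKT1 cells 4 of 37 were higher in Non-GVHD (E2f1, Mcm4, Cdt1 and Pola1) and 2 lower (Clspn and Dtl), against 26.1% and 18.0% of all genes. In NKT2 cells 11 were higher and 0 lower, against 24.0% and 16.8%, led by E2f1, a transcription factor of S-phase genes, at 28.2 CPM in Non-GVHD and 12.3 in WT, and by the flap nuclease gene Fen1 at 63.1 and 33.8. In NKT17 cells 1 was higher (E2f1) and 11 lower, against 23.7% and 18.6%, with Clspn lowest at 8.68 and 30.5. Without cells that met more than 1 gate the NKT17 sum went from -0.31 to -0.044 and 4 genes were lower and 2 higher. In NKT2 cells the count of higher genes was 3 with trimmed mean of M values scaling and 19 with gates set on thinned UMIs, and in NKT1 cells it ran from 2 to 9. No share over all genes is given for these alternatives. With the main settings, the share of members that were higher was below that of all genes in NKT1 cells and 29.7% against 24.0% in NKT2 cells. The mitosis list went the same way as the replication genes in NKT17 cells, at 188 CPM in Non-GVHD against 790 in WT. It went the other way in NKT1 cells (140 against 192) and NKT2 cells (575 against 704), where the members' summed log2 ratios were 0.18 and 0.39. Pcna, the sliding clamp, is uncertain here, since a copy of it is a listed gene in the WT reference only.

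Of 48 other replication genes, 5 were higher in GVHD than in Non-GVHD over all cells, 6 of 41 in NKT1 cells and 0 in NKT2 cells, with 0 lower in each, where 6.83%, 12.3% and 1.19% of all genes were higher. Over all cells the 3 highest were Asf1b, a histone chaperone, at 38.7 and 24.6 CPM, the repressor E2f8 at 7.04 and 4.47, and Tk1, thymidine kinase, at 43.0 and 27.6. In NKT1 cells Tk1 was at 23.8 and 8.54 (log2 ratio 1.49), Asf1b at 26.4 and 9.93 (1.41) and E2f2 at 11.4 and 5.53 (1.07). Over 15 groups of cells (the gates of each library with enough cells), which share libraries and depth, log2 levels were set against the mean log2 level of the members. The genes most like that mean included Ppa1, Psph, Ran, Gmnn, Cenps, Asf1b, Snrpa1, Tmpo and Ncapg, with Pearson's r from 0.97 to 0.95. Among the members themselves r ran from 0.98 for Dut and 0.97 for Mcm5 down to 0.59 for Rfc5, 0.45 for E2f1 and 0.09 for Pold1. Pold1 was highest in Siglech+ cells, at 34.2 CPM in Non-GVHD and 34.4 in GVHD, where most members were lowest.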

How the data were processed

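The authors deposited gene by cell matrices of raw UMI counts for 3 libraries, with no normalization; the headers name Cell Ranger 3.0.2 for WT and 7.0.0 for Non-GVHD and GVHD, while the study's methods name another version, mm10 and Seurat. The study's methods name both a 3' and a 5' kit, and which of them made each library was not given in the sources used here. The filter of the study was applied (more than 200 and fewer than 6000 genes, under 10% mitochondrial UMIs); it left more cells in both BMT libraries, and fewer in WT, than the study states. Levels are CPM, UMIs for each 1000000 over the 30406 gene IDs that the matrices share.

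Gates were set in order on unthinned UMIs: Siglech+ (at least 2 UMIs), Foxp3+ (1), Cd8b1+ (2), NKT17 (at least 2 genes of a marker list that includes Il23r, Il1r1, Blk, Ccr6 and Il17re), then NKT1 (at least 3 of Tbx21, Il2rb, Cxcr3, Nkg7, Klrd1 and Xcl1, and more than NKT2 genes) or NKT2 (at least 3 of Zbtb16, Il17rb, Izumo1r, Id3, Pdcd1 and Il4, and more than NKT1 genes). Counts are given with exact 95% intervals (Poisson for levels, conditional binomial for ratios, Clopper-Pearson for shares). With 1 library per condition no test was made. Genes are named by rule: the 5 largest differences past 1.5-fold in each direction with at least 50 UMIs, the 5 smallest and largest by cycle state, and the 3 largest of 48 other replication genes. Per-cell shares used cells thinned to 2700 UMIs. Of the NKT17 markers and of the genes most like the members, 1 each is not reported here. The members and lists were chosen with earlier results of these data known. Python 3.11.15, numpy 2.4.6, scipy 1.17.1, pandas 2.3.3, and edgeR 4.0.16 (scaling factors only) in R 4.3.3 were used; the scripts were tested on simulated data. Alternatives were the scaling, gates, thresholds, thinning depth and cells left out, and cells split by V beta segment. The set counted here as iNKT segments was Trbv1, Trbv12-2, Trbv13-1, Trbv13-2, Trbv13-3 and Trbv29. Whether iNKT cells use each of them was not tested, and a segment that other T cells use would raise the shares given.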

Additional observations from a re-analysis of the deposited data

Results flagged for a closer look

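Ung had a GVHD over Non-GVHD log2 ratio of 0.619 (counting interval 0.24 to 0.99, from 92 and 175 UMIs) in NKT1 cells and of -0.67 (-1.32 to 0.00, from 57 and 32 UMIs) in Cd8b1+ cells, each past 1.5-fold and in opposite directions. Cdca7 did so between Siglech+ cells, at 3.1 (1.49 to 5.41, from 70 and 3 UMIs), and Cd8b1+ cells, at -0.72 (-1.34 to -0.09, from 62 and 36 UMIs). In Cd8b1+ cells these were the 2 of 29 genes that were lower, against 9.60% of all genes, so falls there were not particular to the members. Of all genes 12.3% were higher in NKT1 and 6.95% in Siglech+ cells. Without cells that met more than 1 gate the summed log2 ratio was -0.35 in Cd8b1+ and -0.29 in Siglech+ cells. With 1 library per condition, the difference between gates was not tested for either gene.

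Cells that the filter left out for 6000 or more genes held more replication RNA than the kept cells. The summed level of the 37 genes was 4880 CPM in 18 such cells of WT, 5080 in 2 of Non-GVHD and 5580 in 1 of GVHD, near the level of the kept cycling cells of each BMT library (5456 and 5391) and above that of WT (3898). The other cells left out were at 851 in WT (161 cells), 1070 in Non-GVHD (14 cells, 18 UMIs) and 475 in GVHD (15 cells, 14 UMIs).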

How the results depend on the processing

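Summed log2 ratios of the 37 genes are given here, GVHD over Non-GVHD unless said otherwise. The sign held in every alternative tried for all cells (0.30 to 0.38), NKT1 (0.31 to 0.61), NKT2 (0.04 to 0.15), Foxp3+ (0.13 to 0.34) and cells in neither state (0.19 to 0.30), for NKT2 over NKT1 and for cycling over other cells. It did not for NKT17, Cd8b1+, Siglech+ or cycling cells, nor for NKT17 over NKT1 in GVHD. The cause of these shifts was not tested. For the NKT1 and NKT2 gates, leaving out cells that met more than 1 gate removed none, so it could not move their ratios. All deposited barcodes added no cell to the NKT1 gate of either BMT library. No paired analysis was possible because each condition has 1 library.

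With trimmed mean of M values scaling the ratios were 0.37 in all cells, 0.37 in NKT1, 0.12 in NKT2, 0.33 in Foxp3+, 0.18 in Cd8b1+ and 0.046 in cycling cells; NKT2 over NKT1 was 1.20 in Non-GVHD and 0.96 in GVHD; NKT17 over NKT1 was 0.93 in WT and 0.41 in Non-GVHD; and Non-GVHD over WT was 0.086 in NKT1, 0.17 in NKT2 and -0.43 in NKT17. The scaling moved all genes by more than 0.1 in Cd8b1+ cells (0.15), NKT2 over NKT1 in GVHD (0.11), NKT17 over NKT1 in Non-GVHD (-0.13), and Non-GVHD over WT in NKT2 (-0.21) and NKT17 (-0.13). As a mean of single-cell levels they were 0.30 in all cells, 0.31 in NKT1, 0.30 in Siglech+ and 0.19 in cells of neither state; 0.93 in WT and 1.07 in Non-GVHD for NKT2 over NKT1; 0.85, 0.31 and 0.039 in WT, Non-GVHD and GVHD for NKT17 over NKT1; and 0.24 for Non-GVHD over WT in NKT1.

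Without cells that met more than 1 gate they were 0.38 in all cells, -0.17 in NKT17, 0.32 in Foxp3+, -0.35 in Cd8b1+, -0.29 in Siglech+ and 0.30 in cells of neither state; NKT17 over NKT1 was 0.27, 0.052 and -0.58 in WT, Non-GVHD and GVHD; and Non-GVHD over WT was -0.044 in NKT17. With gates set on thinned UMIs they were 0.56 in NKT1, -0.20 in NKT17, 0.13 in Foxp3+ and 0.44 in Siglech+; NKT2 over NKT1 was 0.86, 1.18 and 0.69 and NKT17 over NKT1 0.96, 0.29 and -0.46 in WT, Non-GVHD and GVHD; and Non-GVHD over WT was 0.28 in NKT1, 0.60 in NKT2 and -0.38 in NKT17. With 1 marker more per gate they were 0.56 in NKT1, 0.15 in NKT2 and 0.25 in NKT17; NKT2 over NKT1 was 0.80 in GVHD; NKT17 over NKT1 was 0.89 in WT and 0.42 in Non-GVHD; and Non-GVHD over WT was 0.36 in NKT2. With all deposited barcodes Siglech+ was 0.67 and Non-GVHD over WT in NKT2 0.36.

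The next were added after the data were seen. In cells of neither state the ratios were 0.37 in NKT1, 0.043 in NKT2, -0.029 in NKT17, -0.25 in Cd8b1+ and 0.59 in Siglech+, and NKT2 over NKT1 was 0.82, 0.94 and 0.61 in WT, Non-GVHD and GVHD. In cells with iNKT V beta segments they were 0.61 in NKT1, 0.47 in NKT17 and 0.34 in Foxp3+, and in cells with other segments 0.60 in NKT1, -0.40 in NKT17, 0.19 in Foxp3+ and -0.095 in Cd8b1+; NKT2 over NKT1 was 0.55, 1.19 and 0.66 with iNKT segments in WT, Non-GVHD and GVHD and 0.99 with other segments in GVHD.

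Cycle states set at 2 UMIs gave 0.10 in cycling cells and 0.23 in the others, and cycling over other cells was 1.65, 1.99 and 1.87 in WT, Non-GVHD and GVHD; at 5 UMIs it was 1.61 in WT. The percentage of cells called by replication UMIs in WT, Non-GVHD and GVHD was 53.2, 56.6 and 60.4 at 2 UMIs, 16.6, 15.0 and 20.6 at 5, 8.67, 7.60 and 11.7 at 10, 18.9, 17.1 and 22.9 when thinned to 1500 UMIs and 87.3, 58.5 and 69.3 unthinned. The log2 ratio of the NKT2 share over the NKT1 share, 0.50, 0.56 and 0.25 at 3 UMIs, was 0.11, 0.14 and 0.033 at 2 UMIs, 2.08, 1.68 and 1.09 at 5, 2.56, 2.42 and 1.83 at 10 and 1.33, 1.29 and 0.81 when thinned to 1500.

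Counts of genes past 1.5-fold moved by over 1.5 times for GVHD over Non-GVHD in all cells (3 to 6 higher against 5), NKT1 (8 to 22 against 12, with 0 to 1 lower), NKT17 (0 to 5 higher, 0 to 3 lower), Foxp3+ (0 to 9 higher), Cd8b1+ (0 to 4 in each direction), Siglech+ (0 to 27 higher against 17, 0 to 2 lower) and cells in neither state (0 to 2 higher), for NKT2 over NKT1 in WT (17 to 34 higher against 34), for NKT17 over NKT1 (7 to 33, 5 to 22 and 0 to 7 higher, and 0 to 1, 0 to 6 and 0 to 14 lower, in WT, Non-GVHD and GVHD), and for Non-GVHD over WT (2 to 9 higher in NKT1, 3 to 19 in NKT2 and 0 to 2 in NKT17, 1 to 3 lower in NKT1 and 4 to 13 in NKT17). These ranges come without the share over all genes in each alternative, so they show only how the counts moved. Trav11 cells were run for NKT2 over NKT1 in WT alone, since other groups held fewer than 50, and V beta subsets under 50 cells were not run.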
